A study of Mus musculus with 12 samples.

Results

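The genes described here are 45 genes of DNA replication and cell division, 18 that act in S phase and 27 that act in mitosis, out of 37991 genes with a value in the table. They were listed by name from their known roles, with earlier results of these data known. They were found in the table by their mouse Ensembl gene identifiers, and each of the 45 had a row. RNA was sequenced from natural killer (NK) cells, innate lymphocytes that can kill virus-infected and tumour cells. They were NK1.1+CD49b+ bone marrow cells of C57Bl/6 mice, with 3 libraries in each of 4 groups. The DKO group was Ncr1Cre Id2F/F Tcf7F/F, the Id2KO group Ncr1Cre Id2F/F and the Tcf1KO group Ncr1Cre Tcf7F/F. The Ctrl group carried floxed alleles without Cre, given as Id2F/F or Id2F/FTcf7F/F in one place of the labels and as Id2F/F in another. Ncr1Cre is a Cre recombinase driven from the Ncr1 gene, which encodes the NK receptor NKp46, so deletion is limited to cells that have expressed Ncr1. Every comparison with Ctrl also holds the presence of Cre, and DKO against Id2KO or Tcf1KO does not. Id2 encodes an inhibitor of E protein transcription factors, and Tcf7 encodes TCF-1, an HMG-box factor needed for T cell and NK cell development. The labels do not say whether each library came from its own mouse, so p-values measure the spread between these libraries.

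A dividing cell copies its DNA in S phase and parts the copies in mitosis, and the genes for the 2 steps are switched on in turn. E2F transcription factors turn on S phase genes as a cell leaves G1. A later complex of MuvB with B-MYB and FOXM1 turns on mitotic genes, and in resting cells the DREAM complex holds many of both sets down. It reaches mitotic genes through a short element called the CHR, which often lies beside CCAAT boxes bound by NF-Y. Immature NK cells of the bone marrow are known to divide more than mature ones.

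The letters of the CHR and of CCAAT boxes were in a larger share of mitotic than of S phase promoters, and E2F letters the other way round. RefSeq promoters on GRCm38.p6, 250 bases before to 50 after the start, were on hand for 15 of the 18 S phase genes and 21 of the 27 mitotic genes. Ccne2, Mcm4, Gins2, Ccna2, Foxm1, Aurkb, Pbk, Kif20a and Tpx2 had no entry. The CHR letters TTTGAA, read on either strand, were in 2 of the 15 S phase promoters (13.3%) and 16 of the 21 mitotic ones (76.2%), beside 18.1% of the 27025 promoters in the table. CCAAT was in 10 S phase promoters (66.7%) and 19 mitotic ones (90.5%), beside 37.9% of all promoters. Both elements together were in 2 S phase and 16 mitotic promoters, beside 7.12% of all. E2F letters (TTCCCGC or TTCGCGC or TTGCCGC or TTGGCGC on either strand) were in 8 S phase promoters (53.3%) and 4 mitotic ones (19%), beside 9.69% of all. A match is a run of letters and not a measured binding site.

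The promoters below are those of the 3 S phase genes and the 3 mitotic genes with the highest level in Ctrl among the genes with an entry. Mcm3 and Cdk1 were added by hand after results were seen, since later comparisons name them. Each is written 5′ to 3′ on the strand of its gene, and capitals mark CHR, CCAAT and E2F letters on either strand. Matches that overlap form 1 run of capitals.
Pcna, chr2:132253131-132253430, minus strand: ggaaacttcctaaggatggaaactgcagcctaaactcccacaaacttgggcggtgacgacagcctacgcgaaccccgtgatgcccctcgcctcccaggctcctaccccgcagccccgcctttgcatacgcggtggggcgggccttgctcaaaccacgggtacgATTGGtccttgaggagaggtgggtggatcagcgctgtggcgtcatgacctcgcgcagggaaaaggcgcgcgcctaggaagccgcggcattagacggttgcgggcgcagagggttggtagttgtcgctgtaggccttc
Rrm1, chr7:102441445-102441744, plus strand: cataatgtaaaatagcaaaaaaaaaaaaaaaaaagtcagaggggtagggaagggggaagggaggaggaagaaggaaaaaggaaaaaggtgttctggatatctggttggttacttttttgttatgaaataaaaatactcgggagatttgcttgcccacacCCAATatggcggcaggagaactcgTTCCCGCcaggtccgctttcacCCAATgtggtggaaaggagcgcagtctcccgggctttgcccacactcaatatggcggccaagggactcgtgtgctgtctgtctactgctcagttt
Mcm2, chr6:88898731-88899030, minus strand: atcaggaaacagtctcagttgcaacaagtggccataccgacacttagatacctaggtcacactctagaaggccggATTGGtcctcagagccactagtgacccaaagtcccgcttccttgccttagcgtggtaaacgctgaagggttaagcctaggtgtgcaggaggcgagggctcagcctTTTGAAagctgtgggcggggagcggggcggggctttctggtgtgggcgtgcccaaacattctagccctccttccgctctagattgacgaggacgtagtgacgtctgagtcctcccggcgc
Mcm3, chr1:20820263-20820562, minus strand: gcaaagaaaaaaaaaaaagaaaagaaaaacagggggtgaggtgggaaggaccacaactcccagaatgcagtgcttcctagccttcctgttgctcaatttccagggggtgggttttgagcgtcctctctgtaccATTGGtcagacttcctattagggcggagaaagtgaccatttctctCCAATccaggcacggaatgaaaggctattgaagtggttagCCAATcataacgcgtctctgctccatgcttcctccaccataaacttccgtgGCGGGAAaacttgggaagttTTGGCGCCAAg
Mki67, chr7:135716330-135716629, minus strand: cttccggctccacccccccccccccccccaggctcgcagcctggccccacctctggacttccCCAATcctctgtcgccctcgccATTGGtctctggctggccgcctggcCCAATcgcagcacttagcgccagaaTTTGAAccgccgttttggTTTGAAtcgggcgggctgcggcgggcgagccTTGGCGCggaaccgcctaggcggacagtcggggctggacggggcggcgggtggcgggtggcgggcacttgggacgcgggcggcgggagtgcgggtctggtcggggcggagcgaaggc
Ube2c, chr2:164769679-164769978, plus strand: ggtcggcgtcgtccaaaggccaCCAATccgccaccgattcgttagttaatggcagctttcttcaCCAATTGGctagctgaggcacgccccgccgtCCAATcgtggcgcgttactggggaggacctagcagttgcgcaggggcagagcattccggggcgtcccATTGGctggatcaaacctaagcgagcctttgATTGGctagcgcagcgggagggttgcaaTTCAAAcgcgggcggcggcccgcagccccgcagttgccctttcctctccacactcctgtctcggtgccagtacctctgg
Kif11, chr19:37376132-37376431, plus strand: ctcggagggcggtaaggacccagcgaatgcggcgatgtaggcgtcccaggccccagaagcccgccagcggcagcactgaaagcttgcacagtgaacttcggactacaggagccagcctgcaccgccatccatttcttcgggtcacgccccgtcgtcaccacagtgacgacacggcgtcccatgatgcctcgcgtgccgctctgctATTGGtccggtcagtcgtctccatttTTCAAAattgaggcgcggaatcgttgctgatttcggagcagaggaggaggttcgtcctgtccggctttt
Cdk1, chr10:69352863-69353162, minus strand: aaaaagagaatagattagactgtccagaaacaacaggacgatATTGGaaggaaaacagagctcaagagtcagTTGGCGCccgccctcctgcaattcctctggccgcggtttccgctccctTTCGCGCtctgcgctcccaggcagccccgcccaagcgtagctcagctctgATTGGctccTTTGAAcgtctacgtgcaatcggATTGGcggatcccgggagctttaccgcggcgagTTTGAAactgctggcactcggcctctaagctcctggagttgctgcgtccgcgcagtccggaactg
The 4 mitotic promoters each hold at least 1 CHR and 1 CCAAT box. Of the 4 S phase promoters, all hold CCAAT letters and Mcm2 alone holds a CHR. Rrm1 and Mcm3 hold E2F letters, and so do Cdk1 and Mki67 of the mitotic ones.

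Levels are given as FPKM, reads scaled to gene length and library size. Library sizes, worked out from the steps between the values, lay between 13977524 and 20209587 reads. Id2 had 48.8, 41.2 and 36.8 FPKM in DKO, 17.8, 17.1 and 19.2 in Id2KO, 114, 102 and 126 in Tcf1KO, against 124, 163 and 170 in Ctrl. It was lower in each DKO and Id2KO library than in every library of the groups with unrecombined Id2. Id2 was also higher in each DKO library than in every Id2KO library. DKO against Id2KO thus holds a difference in remaining Id2 RNA too, whose cause was not tested. Tcf7 had 53.9, 60 and 73.3 FPKM in DKO, against 81.5, 92.2 and 80.9 in Id2KO. It had 29.6, 37.3 and 38 FPKM in Tcf1KO, against 37.7, 38.6 and 46.5 in Ctrl. Tcf7 totals were thus lower in DKO than in Id2KO without overlap and overlapped between Tcf1KO and Ctrl. A total over the whole gene does not measure the deleted part, so it does not check the Tcf7 labels. All 11 NK markers held in the table were above 0 in every library, with sums of 1907 to 2643 FPKM in DKO, 1447 to 2096 in Id2KO, 1924 to 2283 in Tcf1KO and 2393 to 2539 in Ctrl. The 14 T cell markers were above 0 in every library too. Gzma had the highest mean of the 11 NK markers. In DKO against Ctrl, 9 of the 11 had a log2 fold change below 0 and 2 above 0. Of all tested genes 51.1% were below 0. Without overlap, 7 were lower in DKO (7.27% of all genes). Of 10 immature NK markers, 9 had a fold change above 0 and 1 below. None of either list passed an adjusted p of 0.05 in limma, where 0.145% of all tested genes did.

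The division genes were transcribed in all 12 libraries: none of the 45 was at 0 in any, and all passed the filter of 1 FPKM or more in at least 3 libraries. Among mitotic genes the highest level in Ctrl was that of Mki67, whose protein coats chromosomes in mitosis, at 173 ± 57 FPKM (SD, n = 3). Ube2c, the ubiquitin-conjugating enzyme of the anaphase-promoting complex, had 47.4 ± 15, and Kif11, the motor that pushes spindle poles apart, had 45.8 ± 14. The S phase set was led by Pcna, the sliding clamp of DNA polymerases, at 33.5 ± 3.6 FPKM in Ctrl. Rrm1, the large subunit of ribonucleotide reductase, had 27.5 ± 4.9, and Mcm4, a subunit of the replicative helicase, had 26.7 ± 2.2. Summed over the sets, S phase genes came to 154 ± 16.3 FPKM in DKO, 232 ± 56 in Id2KO, 204 ± 34.2 in Tcf1KO and 213 ± 28.4 in Ctrl. Mitotic genes came to 239 ± 69.4 FPKM in DKO, 388 ± 73.6 in Id2KO, 602 ± 118 in Tcf1KO and 499 ± 159 in Ctrl.

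**Figure D1:**
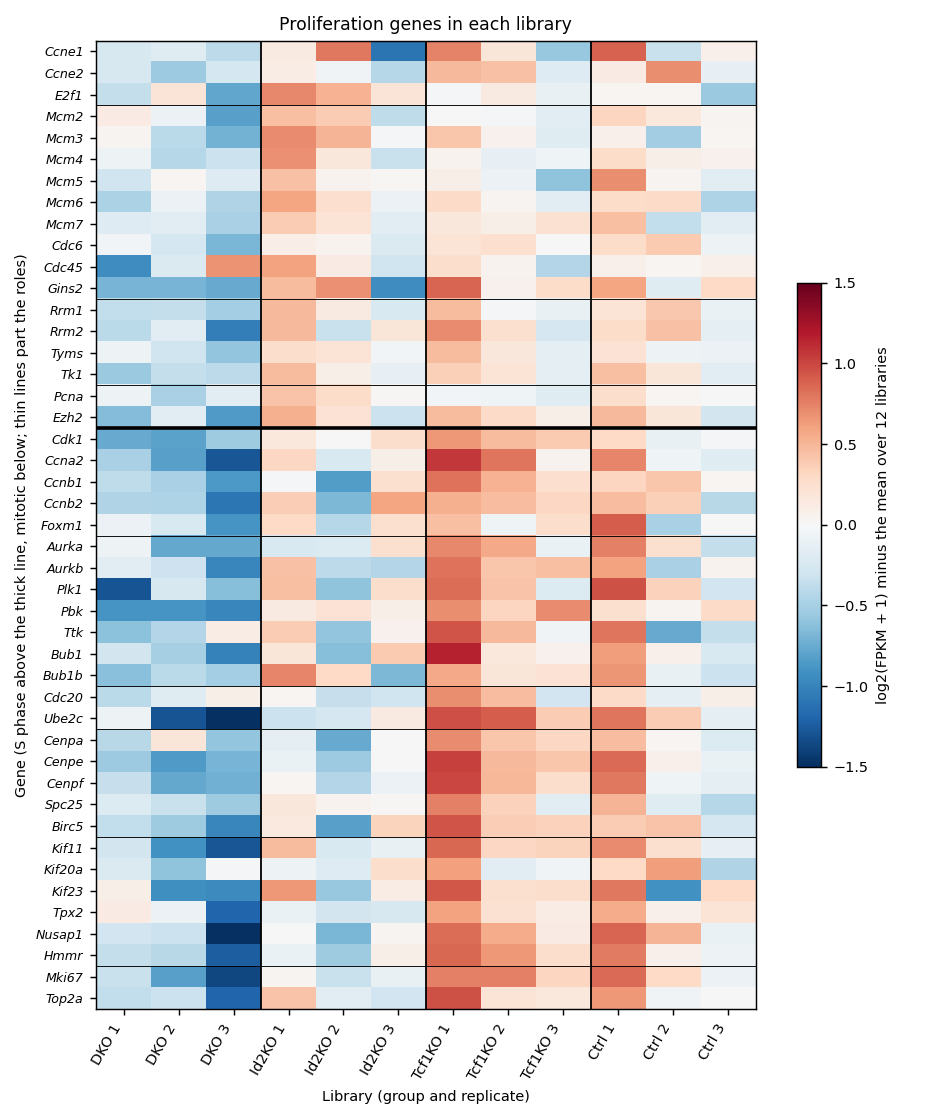
Each row is a gene and each column a library, and the colour is the gene's log2(FPKM + 1) minus its mean over the 12 libraries, with the colour scale ending at 1.5 in both directions. DKO columns are mostly blue in both blocks, Tcf1KO columns are mostly red in the mitotic block, and library 1 of Tcf1KO and of Ctrl is above the mean for all 27 mitotic genes.

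The order of the group means differed between the sets. DKO had the lowest mean of the 4 groups for 16 of 18 S phase genes and 25 of 27 mitotic genes. The exceptions were Mcm5 and Cdc45, lowest in Tcf1KO, and Cdc20 and Cenpa, lowest in Id2KO. For 24 of 27 mitotic genes the highest mean was in Tcf1KO, and 18 ran in the order Tcf1KO, Ctrl, Id2KO, DKO. For S phase genes the highest mean was in Id2KO for 8, in Ctrl for 6 and in Tcf1KO for 4. The 3 DKO libraries lay below all 9 other libraries for Rrm1 and Tk1 of the S phase set and for Cdk1, Ccna2, Pbk, Cenpe, Kif11, Mki67 and Top2a of the mitotic set. That is 2 of 18 and 7 of 27 genes, beside 1.18% of all tested genes.

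In DKO against Ctrl, every one of the 45 genes had a fold change below 0. The test was limma's moderated test on log2(FPKM + 1) over the 12384 genes that passed the filter, with Benjamini-Hochberg adjustment over all of them and a threshold of 0.05. This scale understates the change of genes with few FPKM. One gene of the 45, the mitotic kinase gene Pbk, fell past the threshold, and no S phase gene did. In RNA from many cells, fewer dividing cells and less RNA per dividing cell cannot be told apart. Over all tested genes 0.145% were called, and 0.0888% were called lower. The median log2 fold change was -0.42 over S phase genes and -0.80 over mitotic genes, against -0.01 over all tested genes. Below 0 were 18 of 18 S phase and 27 of 27 mitotic genes, also under median scaling, quantile normalization and voom, against 51.1% of all tested genes. An unadjusted p under 0.05 with a lower level in DKO was found for 6 S phase and 16 mitotic genes, where 4.89% of all genes had one. The 3 DKO libraries lay below the 3 Ctrl libraries for 7 S phase and 15 mitotic genes, against 7.27% of all genes. The median of a set has no test here, since the genes were chosen with results of these data known. Genes of a set also rose and fell together between libraries, so a count of genes is not a count of independent results. Markers of neutrophils and myeloid cells summed to 310 to 795 FPKM in DKO, against 892 to 3601 in Ctrl, and T cell markers to 1895 to 2354 FPKM in DKO, against 1034 to 1183 in Ctrl. With a score of neutrophil, erythroid and basophil markers as a term beside group, all 27 mitotic genes were below 0, with a median of -0.60, and Pbk did not pass (adjusted p = 0.0566 in limma). The part of T cell markers was not tested.

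**Figure D2:**
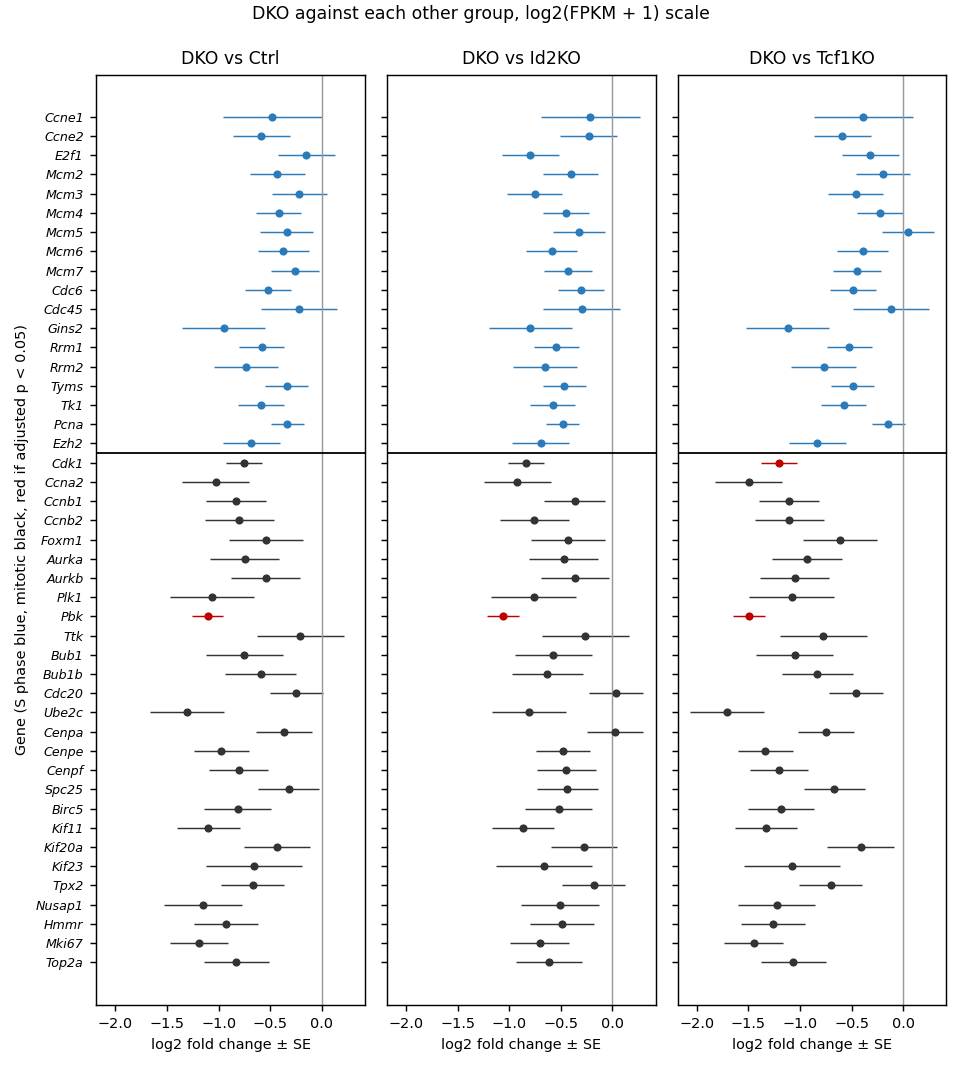
Points are log2 fold changes of DKO over Ctrl, Id2KO and Tcf1KO on the log2(FPKM + 1) scale, bars are SE from limma, and red marks adjusted p under 0.05. Pbk is red in each panel and Cdk1 in the third, and in the first panel no point lies above 0.

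Among the regulators of S phase entry, Ccne1 and Ccne2 encode E cyclins, which drive the start of replication, and E2f1 a transcription factor of S phase genes. Ccne2 had 1.23, 0.794 and 1.19 FPKM in DKO, against 1.86, 3.28 and 1.41 in Ctrl, with no overlap. E2f1 had 1.2, 2.23 and 0.644 FPKM in DKO, against 1.89, 1.88 and 0.922 in Ctrl, and these overlapped. Fold changes of the 3 genes ran between -0.58 and -0.15, with a smallest adjusted p of 0.545.

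The 9 genes of origin licensing and of the replicative helicase (Mcm2 to Mcm7 for its ring, Cdc45 and Gins2 for its partners, Cdc6 for its loading) had fold changes between -0.95 and -0.22. Gins2 had 0.336, 0.326 and 0.279 FPKM in DKO, against 2.25, 0.896 and 1.65 in Ctrl, a mean of 19.6% of the Ctrl level. In Id2KO it had 2.01, 2.47 and 0.135, so Id2KO replicate 3 was below the DKO libraries. Mcm4 had 22.7, 17.5 and 19 FPKM in DKO, against 29.2, 25.6 and 25.2 in Ctrl. These were the 2 genes of the 9 without overlap, beside 7.27% of all tested genes lower in DKO without overlap. Cdc45 went against the rest in DKO replicate 3, with 1.42, 2.98 and 6.33 FPKM in DKO, against 3.87, 3.7 and 3.87 in Ctrl.

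The 4 genes of nucleotide synthesis held 3 of the S phase genes that did not overlap between DKO and Ctrl. Rrm1 had 18.4, 18.5 and 16.6 FPKM in DKO, against 27.9, 32.1 and 22.3 in Ctrl (log2 fold change -0.58 ± 0.22 SE, adjusted p = 0.427 in limma). Rrm2, the small subunit of the same reductase, had 11.4, 13.6 and 7 in DKO, against 19, 21.4 and 14.1 in Ctrl. Tk1, the thymidine kinase that salvages thymidine, had 2.41, 2.92 and 2.81 FPKM in DKO, against 5.85, 4.67 and 3.45 in Ctrl (-0.59 ± 0.22, adjusted p = 0.433 in limma). For these 3 genes the highest DKO library was below the lowest Ctrl library, as it was for 7.27% of all tested genes. Tyms, thymidylate synthase, averaged 2.76 ± 0.66 in DKO and 3.73 ± 0.57 in Ctrl. Of the 2 remaining S phase genes, Ezh2, a histone methyltransferase under E2F control, had 2.03, 3.25 and 1.64 FPKM in DKO, against 5.65, 4.38 and 2.93 in Ctrl (-0.68 ± 0.28, adjusted p = 0.482 in limma). Those libraries overlapped. Pcna had 29.6, 21.9 and 27.8 FPKM in DKO, against 37.7, 31.7 and 31.1 in Ctrl, without overlap. Reads of Pcna may be shared with processed copies: the pseudogene Pcna-ps2 summed to 111 FPKM over the 12 libraries.

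Pbk (ENSMUSG00000022033, chr14:65805837-65817822 on GRCm38, plus strand) encodes a protein kinase that CDK1 and cyclin B activate in mitosis. It had 3.07, 3.08 and 2.85 FPKM in DKO, 7.26, 7.79 and 7.04 in Id2KO, 11.3, 8.47 and 11.4 in Tcf1KO, against 7.94, 6.75 and 8.22 in Ctrl. Every DKO library lay below every other library, and the DKO values spread less than those of the other groups. The level in DKO was 39.3% of that in Ctrl, a log2 fold change of -1.11 ± 0.15 (adjusted p = 0.0298 in limma). Between 105 and 594 reads a library stood behind these values. The call did not hold without DKO replicate 1, 2 or 3 (adjusted p = 0.0716, 0.0713 and 0.13), without Ctrl replicate 1, 2 or 3 (0.115, 0.0909 and 0.11) or without Tcf1KO replicate 2 (0.0505), while the fold change stayed between -1.18 and -1.06. With only the DKO and Ctrl libraries in the fit, or with voom on recovered reads, the adjusted p was 0.172.

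Cdk1, the kinase that starts mitosis (ENSMUSG00000019942, chr10:69335146-69352938 on GRCm38, minus strand), had 1.38, 1.32 and 1.78 FPKM in DKO, 3.49, 3.01 and 3.85 in Id2KO, 5.3, 4.59 and 4.29 in Tcf1KO, against 3.94, 2.74 and 2.97 in Ctrl. DKO libraries lay below all others, and Tcf1KO libraries above all others. Against Ctrl the log2 fold change in DKO was -0.75 ± 0.17 (adjusted p = 0.148 in limma). Cyclin A2, from Ccna2, and the B cyclins, from Ccnb1 and Ccnb2, are its partners. Ccna2 had 10.8, 8.35 and 5.76 FPKM in DKO, against 26.5, 14.8 and 13.6 in Ctrl. Ccnb1 had 0.891, 0.755 and 0.358 in DKO, against 2.08, 2.29 and 1.52 in Ctrl. Ccnb2 had 23.8, 23.7 and 15 in DKO, against 45.7, 42.5 and 24.4 in Ctrl. None of the 3 overlapped between DKO and Ctrl, where 7.27% of all tested genes were lower in DKO without overlap. Ccnb1 and Ccnb2 have pseudogene copies in the table that could take some of their reads. Summed over the 12 libraries, Ccnb1-ps had 0.266 FPKM and Ccnb2-ps 4.96. Foxm1, which encodes the mitotic transcription factor, overlapped, with 4.95, 4.42 and 2.44 in DKO, against 10.9, 3.52 and 5.36 in Ctrl.

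Mki67 had 103, 73.7 and 50 FPKM in DKO, 134, 104 and 121 in Id2KO, 221, 221 and 164 in Tcf1KO, against 235, 160 and 123 in Ctrl. All 3 DKO libraries were below the other 9, by a little in the case of DKO replicate 1. Its log2 fold change against Ctrl was -1.19 ± 0.28 (adjusted p = 0.162 in limma), 43.8% of the Ctrl level. Top2a, which untangles sister chromosomes, had 25, 25.8 and 13.8 FPKM in DKO, against 51.9, 31.3 and 32.9 in Ctrl. DKO was below Ctrl without overlap, and its highest library was just under the lowest of the other 9.

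Among the other mitotic kinases, Bub1 and Bub1b encode proteins of the spindle checkpoint, as Ttk does, and Aurka, Aurkb and Plk1 encode kinases of the spindle and of chromosome segregation. Their fold changes against Ctrl lay between -1.06 for Plk1 and -0.21 for Ttk, and the smallest adjusted p among these 6 was 0.454. Bub1 had 4.78, 3.97 and 2.47 FPKM in DKO, against 9.82, 6.36 and 4.95 in Ctrl, without overlap. Plk1 had 2.73, 6.76 and 4.87 in DKO, against 16.7, 10.6 and 6.54 in Ctrl, where DKO replicate 2 reached into the Ctrl range. Ube2c had 33.7, 13.9 and 12 FPKM in DKO, against 63.1, 46.9 and 32.2 in Ctrl, the most negative fold change of the 45 genes (-1.31 ± 0.36, adjusted p = 0.246 in limma). DKO replicate 1 was above the lowest Ctrl library for Ube2c. Cdc20, the activator of the anaphase-promoting complex, had 2.48, 3.06 and 3.92 in DKO, against 4.64, 3.19 and 3.91 in Ctrl, and these overlapped.

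At the centromere, Cenpe, a kinetochore motor, had 10.1, 8.03 and 9.01 FPKM in DKO, 14.2, 10.2 and 15.1 in Id2KO, 31.9, 21.7 and 20.6 in Tcf1KO, against 28.4, 16.1 and 14.2 in Ctrl. The DKO values again lay below all others. Cenpf, a kinetochore protein, and Birc5, which encodes survivin of the chromosomal passenger complex, did not overlap between DKO and Ctrl, while Cenpa, the centromeric histone, and Spc25, of the kinetochore NDC80 complex, did. The log2 fold changes of the 5 ran between -0.97 and -0.32. Of the spindle genes, Kif11 had 30, 19 and 14.5 FPKM in DKO, 51.1, 31.1 and 33.8 in Id2KO, 67.5, 45.8 and 46.5 in Tcf1KO, against 60.5, 43.4 and 33.6 in Ctrl. Its highest DKO library was just under the lowest of the other 9. Nusap1 and Hmmr, whose proteins bind spindle microtubules, averaged 6.68 ± 3.2 and 2.05 ± 0.93 FPKM in DKO and 15.4 ± 5.3 and 4.8 ± 1.9 in Ctrl, without overlap. Kif20a, Kif23 and Tpx2, which serve cytokinesis and spindle assembly, overlapped, with fold changes between -0.67 and -0.44. Of all tested genes 7.27% were lower in DKO than in Ctrl without overlap.

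**Figure D3:**
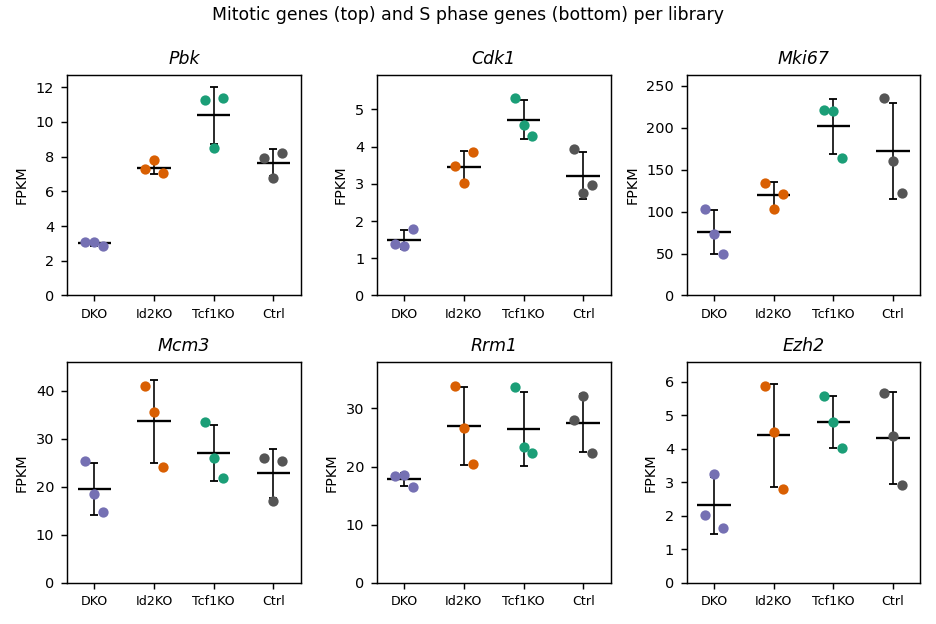
Points are FPKM per library for 3 mitotic genes (top) and 3 S phase genes (bottom), black lines are means and bars are SD over 3 libraries, on axes that start at 0. DKO is below the other 9 libraries for Pbk, Cdk1, Mki67 and Rrm1, and Id2KO has the highest mean of Mcm3, at 33.7 FPKM.

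Against Id2KO, log2 fold changes in DKO were below 0 for all S phase genes and most mitotic genes, while most of the genes overlapped between libraries. Pbk fell, at 40.8% of its level in Id2KO (log2 fold change -1.06 ± 0.15, adjusted p = 0.0284 in limma), and was the sole gene of the 45 past the threshold. Over all tested genes 0.121% were called, and 0.0404% were called lower. Below 0 were 18 of 18 S phase genes, with a median of -0.47, and 25 of 27 mitotic genes, with a median of -0.51. Which median was further from 0 changed with the libraries: it was -0.69 for S phase and -0.41 for mitotic genes without Id2KO replicate 3, and -0.46 for S phase and -0.68 for mitotic genes without Id2KO replicate 2. Over all tested genes 50.3% were below 0 and the median was -0.00. Cdc20 and Cenpa were the 2 mitotic genes above 0, each at 0.03, and 1 of the 2 was below 0 under median scaling and under quantile normalization. The 3 S phase genes with the smallest p were Pcna, E2f1 and Mcm3. Pcna had 29.6, 21.9 and 27.8 FPKM in DKO, against 42.4, 38 and 31.5 in Id2KO (-0.48 ± 0.16, adjusted p = 0.288 in limma), without overlap. Mcm3 had 25.4, 18.4 and 14.8 in DKO, against 41.1, 35.7 and 24.2 in Id2KO (-0.75 ± 0.27, adjusted p = 0.325 in limma). E2f1 had 1.2, 2.23 and 0.644 in DKO, against 3.67, 3.06 and 2.22 in Id2KO (-0.80 ± 0.28, adjusted p = 0.313 in limma). For Mcm3 and E2f1 the lowest Id2KO library reached into the DKO range. After Pbk, the mitotic genes with the smallest p were Cdk1 (-0.84 ± 0.17, adjusted p = 0.121 in limma) and Kif11 (-0.87 ± 0.30, adjusted p = 0.32 in limma). An unadjusted p under 0.05 with a lower level in DKO was found for 8 S phase and 7 mitotic genes (6.08% of all genes), and 5 S phase and 8 mitotic genes did not overlap (8.32% of all genes). The Pbk call did not hold without DKO replicate 1, 2 or 3 (adjusted p = 0.107, 0.0924 and 0.124), Id2KO replicate 1 or 2 (0.132 and 0.155), Tcf1KO replicate 1 (0.0506) or Ctrl replicate 1 or 3 (0.0559 and 0.0622). It did not hold with only the 2 groups in the fit (0.254), with voom (0.173), with the other-lineage term (0.0691) or without DKO replicate 3, Id2KO replicate 3 and Ctrl replicate 2, the libraries of lowest array weight (0.115) either.

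Of the 3 comparisons of DKO, that with Tcf1KO had the most negative median of mitotic genes and the most genes past the threshold. Pbk fell, at 28.9% of its Tcf1KO level (log2 fold change -1.50 ± 0.15, adjusted p = 0.0109 in limma), and Cdk1 fell, at 31.6% (-1.20 ± 0.17, adjusted p = 0.0484 in limma). No other gene of the 45 passed, while over all tested genes 0.0565% did, and 0.0323% in the lower direction. Mitotic genes were below 0 in 27 of 27 cases with a median of -1.08, and S phase genes in 17 of 18 with a median of -0.45, the same under median scaling, quantile normalization and voom, against 50.9% of all tested genes. The 1 S phase gene above 0 was Mcm5, at 0.05. A lower level at an unadjusted p under 0.05 was found for 23 mitotic and 6 S phase genes (3.77% of all genes), and 22 mitotic and 7 S phase genes did not overlap (6.9% of all genes). Mki67 averaged 75.6 ± 27 FPKM in DKO and 202 ± 33 in Tcf1KO (-1.45 ± 0.28, adjusted p = 0.204 in limma). Ccna2 averaged 8.31 ± 2.5 in DKO and 25.7 ± 8.8 in Tcf1KO, and Ube2c 19.9 ± 12 in DKO and 61.6 ± 13 in Tcf1KO. In the S phase set Gins2, a subunit of the replicative helicase, had 0.336, 0.326 and 0.279 FPKM in DKO, against 2.95, 1.25 and 1.61 in Tcf1KO (-1.12 ± 0.40, adjusted p = 0.595 in limma). Ezh2 averaged 2.31 ± 0.84 in DKO and 4.8 ± 0.77 in Tcf1KO (-0.83 ± 0.28, adjusted p = 0.533 in limma), and Tk1 2.71 ± 0.27 in DKO and 4.59 ± 0.95 in Tcf1KO (-0.58 ± 0.22, adjusted p = 0.632 in limma). The Cdk1 call did not hold without any 1 of the 12 libraries (adjusted p between 0.0573, without Ctrl replicate 1, and 0.331, without Tcf1KO replicate 1). It held in 3 of the 25 settings run beside the main one, a count that includes those 12 fits. The Pbk call did not hold without DKO replicate 3 (0.0553), Tcf1KO replicate 1 (0.0602) or Tcf1KO replicate 3 (0.0775), nor with only the 2 groups in the fit (0.158) or with voom (0.127).

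In Id2KO against Ctrl no gene of the 45 passed, where 0.178% of all tested genes did. S phase genes were split, 9 above 0 and 9 below, with a median of 0.00, while 22 of 27 mitotic genes were below 0, with a median of -0.23. Over all tested genes 50.9% were below 0. E2f1 had 3.67, 3.06 and 2.22 FPKM in Id2KO, against 1.89, 1.88 and 0.922 in Ctrl (0.64 ± 0.28, adjusted p = 0.475 in limma). It was the 1 S phase gene higher in Id2KO without overlap (7.11% of all genes), and the 1 with an unadjusted p under 0.05 (5.53% of all genes, in the higher direction). Mcm3 had 41.1, 35.7 and 24.2 in Id2KO, against 26.1, 16.9 and 25.4 in Ctrl (0.53 ± 0.27, adjusted p = 0.565 in limma). Ccne2 averaged 1.44 ± 0.45 in Id2KO and 2.18 ± 0.97 in Ctrl (-0.36 ± 0.28, adjusted p = 0.743 in limma). Of the mitotic genes, Cenpe (-0.49 ± 0.26, adjusted p = 0.603), Mki67 (-0.48 ± 0.28, 0.638) and Nusap1 (-0.64 ± 0.38, 0.638) had the smallest p in limma. Tpx2 was the 1 mitotic gene lower in Id2KO without overlap (6.75% of all genes), with 4.28, 3.69 and 3.81 FPKM in Id2KO, against 7.39, 4.99 and 5.52 in Ctrl. The S phase median was 0.25 without Id2KO replicate 3 and -0.17 without Id2KO replicate 1. The mitotic median was -0.01 without Ctrl replicate 1 and -0.08 without Id2KO replicate 2, and 0.08 with an other-lineage marker score as a term beside group.

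In Tcf1KO against Ctrl most mitotic genes were above 0, and no gene of the 45 passed. No gene of the whole table passed either (0%), while 594 (4.8%) had an unadjusted p under 0.05 and voom called 4. Of the mitotic genes 26 of 27 were above 0 with a median of 0.30, in 25 with median scaling or voom and 26 with quantile normalization, against 49.7% of all tested genes. S phase genes were split 9 to 9, with a median of -0.00. Cdk1 (0.45 ± 0.17, adjusted p = 0.977 in limma) and Pbk (0.39 ± 0.15, adjusted p = 0.977 in limma) were higher in Tcf1KO without overlap, against 4.96% of all genes, and had the unadjusted p under 0.05 that 2.52% of all genes had in that direction. Aurkb averaged 8 ± 1.4 FPKM in Tcf1KO and 5.58 ± 2.5 in Ctrl (0.51 ± 0.33, adjusted p = 0.999 in limma). Pcna, Mcm2 and Mcm4 were lower in Tcf1KO without overlap, against 5.73% of all genes. Pcna had 30.3, 29.8 and 27.3 FPKM in Tcf1KO, against 37.7, 31.7 and 31.1 in Ctrl (-0.19 ± 0.16, adjusted p = 0.999 in limma). Mcm5 (-0.39 ± 0.25) and Mcm3 (0.24 ± 0.27) had the smallest p beside it, both at an adjusted p of 0.999 in limma. The mitotic median was 0.15 without Ctrl replicate 3 and 0.17 without Tcf1KO replicate 1, and 0.51 without Ctrl replicate 1. The median mitotic deviation of single libraries, set out below, overlapped between Tcf1KO (0.26 to 0.81) and Ctrl (-0.12 to 0.66). The pooled SD of the mitotic median between libraries of a group was 0.36, larger than the median fold change of 0.30.

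Whether loss of Id2 went with another change in cells without Tcf7 than in cells with it was tested by the interaction term, the fold change of DKO over Tcf1KO less that of Id2KO over Ctrl. No gene of the 45 and none of all 12384 passed (0%), with 735 genes (5.94%) at an unadjusted p under 0.05 and 0 called by voom. Pbk came nearest, at -1.45 ± 0.22 (adjusted p = 0.085 in limma), an adjusted p that genes outside the 45 shared with a smaller unadjusted p. Cdk1 stood at -1.28 ± 0.25 (adjusted p = 0.263 in limma) and Ccna2 at -1.39 ± 0.46 (adjusted p = 0.831 in limma). In the S phase set Mcm3 (-0.99 ± 0.38), E2f1 (-0.96 ± 0.39) and Ezh2 (-0.84 ± 0.39) had the smallest p, with adjusted p of 0.831 to 0.836 in limma. Values were below 0 for 27 of 27 mitotic genes, with a median of -0.84, and for 17 of 18 S phase genes, with a median of -0.53, beside 49.8% of all tested genes below 0. An unadjusted p under 0.05 with a negative value was found for 8 mitotic and 2 S phase genes, where 3.59% of all genes had one.

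The level of each set in single libraries was set out as the median over its genes of the deviation from the gene's mean over 12 libraries, on the log2 scale. For mitotic genes it was -0.36, -0.49 and -0.96 in DKO, 0.15, -0.39 and 0.09 in Id2KO, 0.81, 0.43 and 0.26 in Tcf1KO, against 0.66, 0.07 and -0.12 in Ctrl. DKO replicates 2 and 3 were the 2 lowest libraries of the 12, and DKO replicate 1 stood just above Id2KO replicate 2. For S phase genes it was -0.27, -0.24 and -0.50 in DKO, 0.48, 0.21 and -0.18 in Id2KO, 0.32, 0.08 and -0.15 in Tcf1KO, against 0.28, 0.06 and -0.10 in Ctrl. The DKO libraries were the 3 lowest, and the other groups overlapped one another. Mitotic minus S phase was positive in each Tcf1KO library (0.49, 0.35 and 0.41) and negative in each DKO library (-0.09, -0.25 and -0.46). In Id2KO it was -0.33 and -0.60 in replicates 1 and 2 and 0.28 in replicate 3, and in Ctrl 0.39, 0.01 and -0.03.

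**Figure D4:**
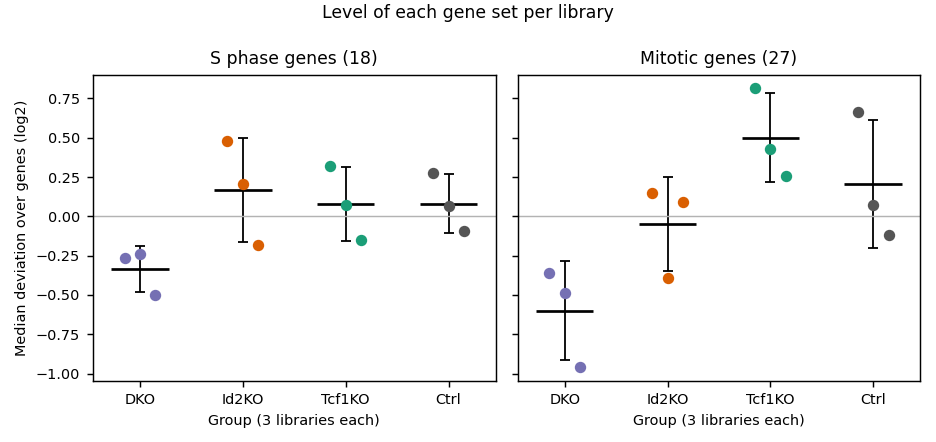
Points are libraries, the vertical axis is the median over the genes of a set of log2(FPKM + 1) minus the gene's mean over 12 libraries, black lines are group means and bars are SD over 3 libraries. The 3 DKO libraries are the lowest in the S phase panel, between -0.50 and -0.24, and all Tcf1KO libraries are above 0 in the mitotic panel.

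The highest mitotic level within DKO, Tcf1KO and Ctrl was in replicate 1, and in each of these groups that library had Xist under 1 FPKM while the other 2 had 124 to 318. In Id2KO the library with Xist under 1 FPKM was replicate 2, and it had the lowest mitotic level of its group. Each group has 1 such library, so a term for this split cannot change a fold change and bears only on the error. With it, the adjusted p of Pbk was 0.0422 in DKO against Ctrl, 0.0428 against Id2KO and 0.0186 against Tcf1KO. The adjusted p of Cdk1 against Tcf1KO was 0.0876, so that call was lost.

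Markers of other cells differed between the groups as well. All 17 neutrophil and myeloid markers were in the table, and 10 were above 0 in every library. Their sum ran from 310 to 795 FPKM in DKO, 60.7 to 1036 in Id2KO, 1182 to 4233 in Tcf1KO and 892 to 3601 in Ctrl. The 14 erythroid markers, 10 of them above 0 throughout, came to 423 to 2644 FPKM in DKO, 88.3 to 1857 in Id2KO, 1297 to 3411 in Tcf1KO and 699 to 4674 in Ctrl. The 8 basophil and mast cell markers came to 56.7 to 593 in DKO, 15.6 to 94.7 in Id2KO, 51.1 to 752 in Tcf1KO and 167 to 631 in Ctrl. The 14 T cell markers came to 1895 to 2354 FPKM in DKO, 1341 to 1794 in Id2KO, 1440 to 1934 in Tcf1KO and 1034 to 1183 in Ctrl. Of the 11 B cell markers, Ms4a1, Vpreb1, Igll1, Ebf1 and Pax5 were under 1 FPKM in every library. The highest of them, Ighm, ran from 250 to 278 FPKM in DKO and 345 to 411 in Id2KO. It ran from 149 to 197 in Tcf1KO and 160.5 to 246 in Ctrl. Flt3, Meis1 and Mycn of the 8 progenitor markers were under 1 FPKM in every library. Myb, the highest of the 8, had 6.64 to 9.12 FPKM in DKO and 12.1 to 16.65 in Id2KO. It had 4.02 to 5.25 in Tcf1KO and 7.86 to 9.43 in Ctrl. Id2KO replicate 3 differed from the other two of its group, with 1036 FPKM of neutrophil and myeloid markers, against 60.7 and 190 in Id2KO replicates 1 and 2. With a score of the neutrophil, erythroid and basophil lists as a term beside group, the mitotic median was -0.60 in DKO against Ctrl, -0.76 against Id2KO and -0.94 against Tcf1KO, and all 27 mitotic genes were below 0 in each. The S phase medians were -0.42, -0.53 and -0.40 in the same order. In that fit Pbk was at an adjusted p of 0.0566 against Ctrl and 0.0691 against Id2KO.

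**Figure D5:**
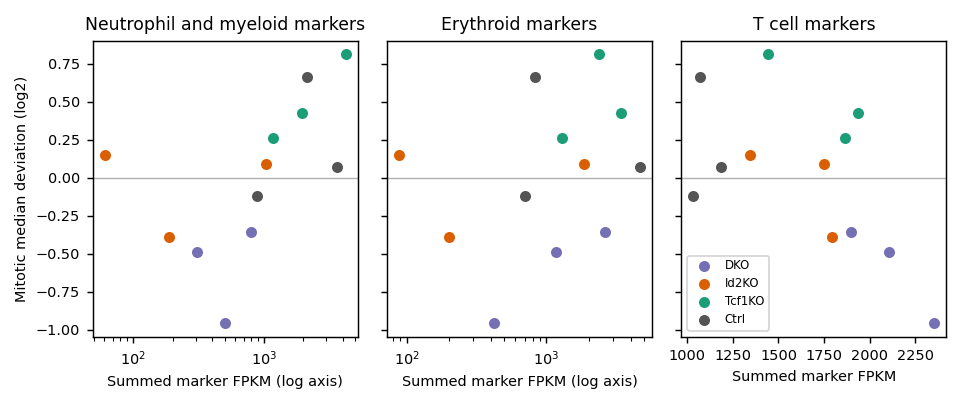
Each point is a library, placed by the summed FPKM of a marker list (log axes in the left and middle panels, a linear axis on the right) and by its mitotic median deviation. Tcf1KO libraries are at 1182 FPKM or more of neutrophil and myeloid markers, and DKO libraries are at 1895 FPKM or more of T cell markers.

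Other cell cycle genes, listed from their known roles with earlier results of these data known, were also mostly below 0 in DKO against Ctrl. Of all tested genes 51.1% were below 0 in that comparison and 0.145% passed. Of 38 other S phase genes tested, 34 were below 0 (median -0.32) and none passed. Of 39 other mitotic genes, 35 were below 0 (median -0.63), and Kif22, a chromosome-binding motor of mitosis, fell, with 3.79, 2.67 and 3.81 FPKM in DKO, against 10.5, 9.95 and 9.74 in Ctrl (-1.34 ± 0.20, adjusted p = 0.0416 in limma). In Id2KO it had 7.7, 4.75 and 5.74 and in Tcf1KO 11.6, 10.2 and 7.63, so all DKO libraries were below the other 9. Its call did not hold without any 1 DKO library (adjusted p = 0.0781, 0.111 and 0.134 without replicates 1, 2 and 3), any 1 Ctrl library (0.119, 0.126 and 0.127) or Tcf1KO replicate 1 or 2 (0.0542 and 0.0758). The call was also lost with voom (0.126), the compared groups alone (0.125), no filter (0.0668), the Xist term (0.0634) and the other-lineage term (0.104). Without the 3 libraries of lowest array weight it was lost too (0.251). Of 26 histone genes of the replication-dependent kind, 26 were below 0 (median -0.83), and Hist2h3c2 fell (-1.76 ± 0.28, adjusted p = 0.0468 in limma), with 1.06, 0.689 and 0.139 FPKM in DKO, against 4.15, 4.81 and 4.18 in Ctrl. That call held without Id2KO replicate 2, and the adjusted p ran between 0.052 (without Id2KO replicate 1) and 0.191 (without DKO replicate 3) when any of the other 11 libraries was left out, and was 0.0667 with the Xist term. It was 0.169 with voom, 0.171 with the compared groups alone and 0.107 with the other-lineage term. The Hist2h3c2 call held in 4 of the 25 settings run beside the main one, a count that includes the fits with 1 library left out. Histone genes are near copies of one another, so reads may have been split between them. Against Tcf1KO, 36 of 38 other S phase genes, 38 of 39 other mitotic genes and 25 of 26 histone genes were below 0 and none passed, where 50.9% of all tested genes were below 0 and 0.0565% passed. Against Id2KO the counts were 37, 36 and 22, and again none passed, where 50.3% of all tested genes were below 0 and 0.121% passed.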

How the data were processed

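RNA-seq values of 12 libraries in 4 groups of 3 were used as deposited: FPKM for 37991 genes, computed by the authors. Per the submitters' processing notes, Trimmomatic 0.33, TopHat2 2.1.0, HTSeq 0.6.1 and edgeR (no version given) were used with the mouse genome mm10. Whether counting used strand is not given in the sources used here. Per the labels' protocols, libraries were made with the Ovation Ultralow system and read for 76 cycles. For 32938 identifiers the symbol and position were taken from GENCODE M21 (GRCm38), and 5053 identifiers had none.

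Of 23707 genes above 0, all 23707 gave whole reads from the steps of the values (tolerance 0.001 reads, and for 5 genes a whole gene length instead). The reads sum to 99.985% to 99.993% of the library sizes.

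Genes at 1 FPKM or more in at least 3 libraries (12384) were fitted as log2(FPKM + 1) on group over 12 libraries in limma 3.58.1 (R 4.3.3) with a variance trend. The two-sided moderated test was adjusted by Benjamini-Hochberg over the genes of each contrast, at a threshold of 0.05. The model was tested on simulated data first. Named were the 3 genes of each set with the smallest p per contrast, the 3 with the highest level in Ctrl, and at most 2 of each other list per contrast. Other genes of the 45 were named for their role, and some after their values were seen. Fold changes of 6 contrasts, the medians of the 2 sets and counts of calls were refitted under other pseudocounts (0.1, 0.5), filters (none, 5 FPKM), scalings, variance settings, fits of the compared groups alone, voom on the recovered reads, the replicate number as a block, and each library left out. Added after seeing the data were array weights, a fit without the 3 libraries of lowest weight, an Xist term and an other-lineage marker term. The genes and lists were chosen with earlier results of these data known. With groups of 3 against 3, an exact permutation test of 1 gene cannot reach 0.05, so none was run. Summaries used pandas 2.3.3 and numpy 2.4.6 under Python 3.11.15, and plots matplotlib 3.10.9.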

Additional observations from a re-analysis of the deposited data

How the results depend on the processing

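Which genes passed depended on the setting. In DKO against Ctrl, 1 gene of the 45 passed. It was 0 with the compared groups alone, with voom, without the 3 libraries of lowest weight (DKO replicate 3, Id2KO replicate 3 and Ctrl replicate 2) and with the other-lineage term, and 0 to 1 with 1 library left out. In DKO against Id2KO, 1 passed, against 0 with the compared groups alone, voom, without those 3 libraries and with the other-lineage term, and 0 to 1 with 1 library left out. In DKO against Tcf1KO, 2 passed. It was 1 with a pseudocount of 0.1, no filter, a filter of 5 FPKM (32 of the 45 genes tested), median scaling, quantile normalization, the Xist term and the other-lineage term. It was 0 with the compared groups alone, with voom and without the 3 libraries, and 0 to 2 with 1 library left out. In Id2KO and Tcf1KO against Ctrl and in the interaction, 0 passed under every setting run. One median moved by more than the spread between libraries, that of S phase genes in Id2KO against Ctrl without Id2KO replicate 3, 0.25, within a leave-one-out range of -0.17 to 0.25. That spread was an SD of 0.23 for S phase and 0.36 for mitotic genes. The second is larger than the mitotic medians of Id2KO (-0.23) and Tcf1KO (0.30) against Ctrl. A change of sign could thus count as not moved, as for the mitotic median of Id2KO, at 0.08 with the other-lineage term. The replicate block, the Xist term and leaving out a library of a group outside a comparison cannot move its fold changes, so they do not bear on the medians. Ccne2 in Id2KO against Ctrl changed sign to 0.0314 without the 3 libraries, and Mki67 and Nusap1 to 0.0002 and 0.0668 with the other-lineage term. The cause of these shifts was not tested. Scalings moved the median of all genes by at most 0.03. Voom called 13 genes of the whole table in DKO against Ctrl, 11 against Id2KO and 2 against Tcf1KO, where the FPKM fit called 18, 15 and 7.

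The main fit did not pair libraries by replicate number, since the labels do not say that the numbers mark a shared litter or day. Deviations of same-numbered libraries correlated between -0.14 and 0.27 (18 pairs, median 0.03, 6 over 0.1), beside 3 over 0.1 among 36 pairs of different numbers. All 6 were pairs between DKO, Tcf1KO and Ctrl. The highest same-numbered pair with Id2KO was at 0.03 (DKO and Id2KO replicate 2). As a hint from the data, 9 of 12 libraries correlated best with one of their own number, and these 9 were the DKO, Tcf1KO and Ctrl libraries. The numbers thus went with a shared part of the spread in these groups, whose cause was not tested. With the replicate block, 2 genes of the 45 passed in DKO against Ctrl (Kif11 and Pbk), 0 against Id2KO (Pbk at an adjusted p of 0.0537 in limma) and 4 against Tcf1KO (Kif11, Pbk, Ccna2 and Mki67). Of all 12384 tested genes, 19 were called in DKO against Ctrl, 15 against Id2KO and 15 against Tcf1KO in that fit. Depth limits the low genes: Gins2 rests on 20 to 354 reads a library and Ccnb1 on 54 to 501.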

Other observations

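Genes that govern exit from G1, such as D cyclins, their kinases and pocket proteins, were more often below 0 than above in DKO against Ctrl. Of the 23 tested, 17 were below 0, with a median log2 fold change of -0.21, where 51.1% of all tested genes were below 0, and none passed. Ccnd2, a D cyclin of lymphocytes, had 72, 79.5 and 85.1 FPKM in DKO, against 58.7, 50.5 and 69.2 in Ctrl (0.41 ± 0.14, adjusted p = 0.373 in limma), without overlap. Ccnd3, the other D cyclin used by lymphocytes, had 17.3, 18.1 and 13.9 in DKO, against 27.3, 18.2 and 22.9 in Ctrl (-0.44 ± 0.18, adjusted p = 0.489 in limma). The 2 D cyclins thus had fold changes of opposite sign.

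Of 15 tested genes for CDK inhibitors and for resting cells, 8 were above 0 and 7 below in DKO against Ctrl, with a median of 0.12 and none past the threshold. Of all tested genes 51.1% were below 0 in that comparison and 0.145% passed. Cdkn3, a phosphatase gene that is itself transcribed late in the cell cycle, had 1.76, 1.62 and 2.61 FPKM in DKO, 3.43, 2.17 and 3.72 in Id2KO, 10.1, 9.35 and 5.3 in Tcf1KO, against 7, 5.87 and 2.91 in Ctrl. Its order of groups was that of most mitotic genes. Foxo1, a transcription factor of resting lymphocytes, had 29.8, 30 and 36.4 FPKM in DKO, 45.1, 36.3 and 46.2 in Id2KO, 21.5, 22 and 28.2 in Tcf1KO, against 26.9, 22.6 and 32.3 in Ctrl. All 3 Id2KO libraries were above all Ctrl libraries for Foxo1 (0.63 ± 0.18, adjusted p = 0.267 in limma). Most of its list went the other way: 4 of the 15 were above 0 and 11 below in Id2KO against Ctrl, with a median of -0.22. Of all tested genes 50.9% were below 0. Without overlap, 3 of the list were higher in Id2KO and 3 lower, beside 7.11% and 6.75% of all tested genes. Ung, an S phase gene for the removal of uracil from DNA, had 6.27, 6.12 and 2.7 FPKM in Id2KO, against 1.94, 1.1 and 1.01 in Ctrl (1.32 ± 0.33, adjusted p = 0.204 in limma), also without overlap.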
